A study of Mus musculus with 6 samples.

Results

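The genes described here encode mostly the receiving side of the synapse: glutamate and GABA receptors, the scaffold proteins beneath them, CaMKII, gephyrin and the neuroligins. They were chosen as a fixed list of 39 gene symbols, and all 39 were found among the 27179 genes of the deposited table. RNA was measured by poly(A) sequencing in cerebral cortex of C57BL/6N mouse embryos at E18.5, shortly before birth. The 3 Control libraries (FF1, FF2, FF4) came from embryos whose Cap1 alleles are flanked by recombination sites (genotype Cap1 flx/flx). The 3 CAP1-KO libraries (FCRE3, FCRE4, FCRE5) came from embryos with the same alleles and a Nestin-CRE transgene, whose promoter is active in neural progenitors, so that neurons and glia derived from them lose CAP1, an actin-binding protein of filament turnover. No group carried the Cre transgene without the flanked alleles, and both groups carried those alleles. Effects of the Cre transgene therefore cannot be told apart from those of the Cap1 deletion. The sample titles call the libraries of each group biological replicates. Which exons were removed, and whether embryos shared a litter or were pooled, is not given in the labels. The p-values therefore measure the spread between these libraries, which may not stand for independent litters.

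At excitatory synapses, AMPA receptors carry the fast current, NMDA receptors admit calcium and the kinase CaMKII responds to it, while kainate and metabotropic receptors modulate transmission. Dlg proteins hold the receptors, Dlgap proteins link Dlg to Shank, and Homer ties Shank to metabotropic receptors, so that the postsynaptic density is coupled to the actin of the dendritic spine. At inhibitory synapses, gephyrin anchors GABA-A receptors, and neuroligins bridge both kinds of synapse to the presynaptic side. Around birth in rodent cortex most of these genes are already transcribed while spines are still sparse.

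Recovered depth ranged from 32443864 to 36302598 reads per library, and 1 CPM (library-scaled read count, on the authors' normalized scale) stood for 31.2 to 37.3 reads. Cap1 measured 194, 193 and 166 CPM in FF1, FF2 and FF4 and 86.6, 85.9 and 82.9 CPM in FCRE3, FCRE4 and FCRE5, and fell to 46.2% of Control (log2 fold change -1.10, SE 0.07, limma adjusted p = 0.000283). The Control libraries were not alike: cortical projection neuron markers (12 genes, all 12 detected) summed to 3172 CPM in FF1 and 3262 in FF2 but 2241 in FF4, against 2193 to 2421 in CAP1-KO. Striatal neuron markers (14 genes) summed to 650 and 626 CPM in FF1 and FF2, 802 in FF4 and 716 to 776 in CAP1-KO, and interneuron markers (11 genes) to 638, 558, 886 and 799.9 to 874. Pan-neuronal markers (15 genes) summed to 10581 to 11257 CPM in Control and 10223 to 10482 in CAP1-KO, with a median log2 fold change of -0.11. That median was -0.32 for cortical projection neuron, 0.45 for striatal neuron and 0.30 for interneuron markers. The median shift of FF4 from the mean of FF1 and FF2 (log2) was -0.56, 1.18 and 0.65 in these lists. In the pan-neuronal list it was -0.005. Each of these marker genes had reads, and no marker of these 4 lists passed the test. Choroid plexus markers (6 genes) summed to 0.80 to 4.32 CPM in Control and 51.5 to 113 in CAP1-KO, with 1 marker called higher, and endothelial markers (8 genes) to 155 to 175 and 123 to 138, with 2 called lower. Microglial markers (9 genes) summed to 36.8 to 49.97 CPM in Control and 55.5 to 72.4 in CAP1-KO, meningeal fibroblast markers (8 genes) to 57.5 to 62.5 and 60.7 to 164, and oligodendrocyte precursor markers (6 genes) to 179 to 194 and 141 to 190, with 0 called in these 3 lists. The part of these marker levels in the values of the postsynaptic genes was not tested. Xist, which coats the silenced X chromosome, stood at 0.58 CPM in FF1 and 2.05 in FF4 but 2296 in FF2 and 2398 to 2653 in CAP1-KO, so sex was not balanced. In bulk tissue, fewer cells of a type and less RNA per cell cannot be told apart.

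Postsynaptic genes lay slightly lower in CAP1-KO as a group, and none of them passed the test on its own. All 39 exceeded the level needed for testing, a mean of 1 CPM over the 6 libraries, and 0 were called in either direction (limma, Benjamini-Hochberg adjusted p under 0.05 over 13885 genes; 0.403% of all genes were called lower and 0.562% higher). Their log2 fold changes, on the log2(CPM + 1) scale, ran from -0.47 to 0.15 with a median of -0.21, where the median of all genes tested was -0.01. A negative value was found for 33 of 39 members (84.6%), as for 51.7% of all genes. At an unadjusted p under 0.05, 17 members were lower (43.6%, against 15.3% of all genes) and 0 higher (7.74% of all genes). In 15 members (38.5%) the groups were separated, with the highest CAP1-KO library under the lowest Control library, an order found in 14.6% of all genes, and the reverse order, found in 11.1% of all genes, occurred in 0 members. The smallest adjusted p was 0.07, for Shank1. Transcripts of these genes are long, with a median of 5.57 kb. The 2403 tested genes at least that long had a median log2 fold change of -0.04. Of those genes, 61.6% had a negative value and 17.5% were separated with CAP1-KO lower.

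**Figure D1:**
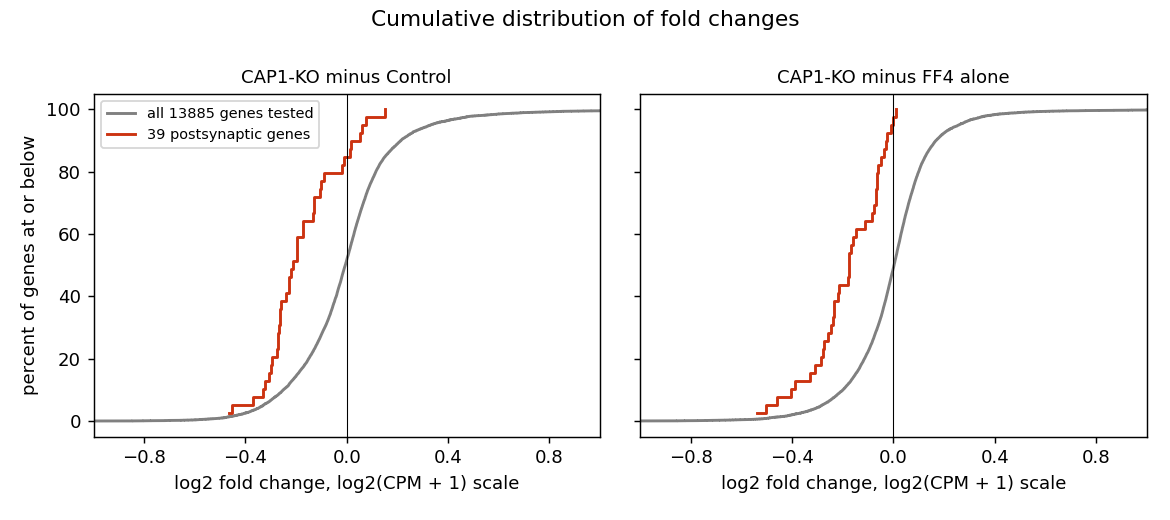
Cumulative share of genes (percent, vertical axis) by log2 fold change on the log2(CPM + 1) scale (horizontal axis) for the 39 postsynaptic genes and all 13885 genes tested, against the 3 Control libraries (left) and against FF4 alone (right). The curve of the postsynaptic genes lies to the left in both panels, with medians of -0.21 and -0.18 where all genes have -0.01 and 0.00.

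All 12 scaffold genes had negative log2 fold changes against Control (median -0.29, range -0.47 to -0.10). At an unadjusted p under 0.05, 10 of 12 were lower (15.3% of all genes), and 8 of 12 were separated (14.6% of all genes). Shank1 encodes a large organizing scaffold of the postsynaptic density (GRCm38, chr7:44308916-44360094, plus strand). It measured 537 CPM in FF1, 552 in FF2 and 446 in FF4, against 348 in FCRE3, 401 in FCRE4 and 359 in FCRE5. Its groups did not overlap, FF4 was the lowest Control, and the mean in CAP1-KO was 72.2% of Control (log2 fold change -0.47, SE 0.09, limma adjusted p = 0.07). The authors' deposited table lists Shank1 at -0.47 (log2) with FDR 0.0461, and it was the 1 member under an FDR of 0.05 there, where 0.412% of the genes were lower and 0.401% higher at that FDR. Shank2 ranged from 114 to 144 CPM in Control and from 88.8 to 110 in CAP1-KO (log2 fold change -0.45, SE 0.11), and Shank3 from 111 to 119 and from 87.6 to 107 (-0.30, SE 0.08), so all 3 Shank genes were separated between the groups.

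Dlg4 encodes the principal membrane-associated guanylate kinase of excitatory synapses (GRCm38, chr11:70017203-70045535, plus strand). It measured 365 CPM in FF1, 349 in FF2 and 328 in FF4, and 256 in FCRE3, 298 in FCRE4 and 253 in FCRE5. The lowest Control library thus stayed above the highest CAP1-KO library, at a log2 fold change of -0.37 (SE 0.08, limma adjusted p = 0.0737). The authors' deposited table gives Dlg4 an FDR of 0.0537. Dlg3, a paralog on the X chromosome, measured 159, 163 and 143 CPM in FF1, FF2 and FF4 and 120, 132 and 132 CPM in FCRE3, FCRE4 and FCRE5 (log2 fold change -0.27, SE 0.07, adjusted p = 0.0933), again without overlap. Dlg2 was the least different of the 12: its 377 to 401 CPM in Control and 342 to 384 CPM in CAP1-KO overlapped (-0.10, 95% interval -0.24 to 0.03).

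Among the Dlgap linkers and the Homer adaptors, Dlgap2, Dlgap3 and Homer2 were separated. Dlgap4, the member of that family with the highest level per transcript length, measured 384 CPM in FF1, 370 in FF2 and 303 in FF4, and 302, 312 and 302 CPM in FCRE3, FCRE4 and FCRE5. FF4 lay among the CAP1-KO libraries, and the log2 fold change was -0.20 (SE 0.09, limma adjusted p = 0.226). Dlgap3 (77.9 to 85.2 CPM in Control, 61.2 to 73.4 in CAP1-KO) and Dlgap2 (17.7 to 19.9 in Control, at most 16.3 in CAP1-KO) were separated, whereas Dlgap1 (158 to 197 and 140 to 164) overlapped. Homer2 was separated by a narrow gap (60.8 to 68.7 against 55.0 to 60.5 CPM), and Homer1, whose short form is induced by activity, overlapped through FF4 (80.8 to 112 against 73.5 to 84.1 CPM). The table has 1 value per gene, so Homer1 forms are not separated.

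**Figure D2:**
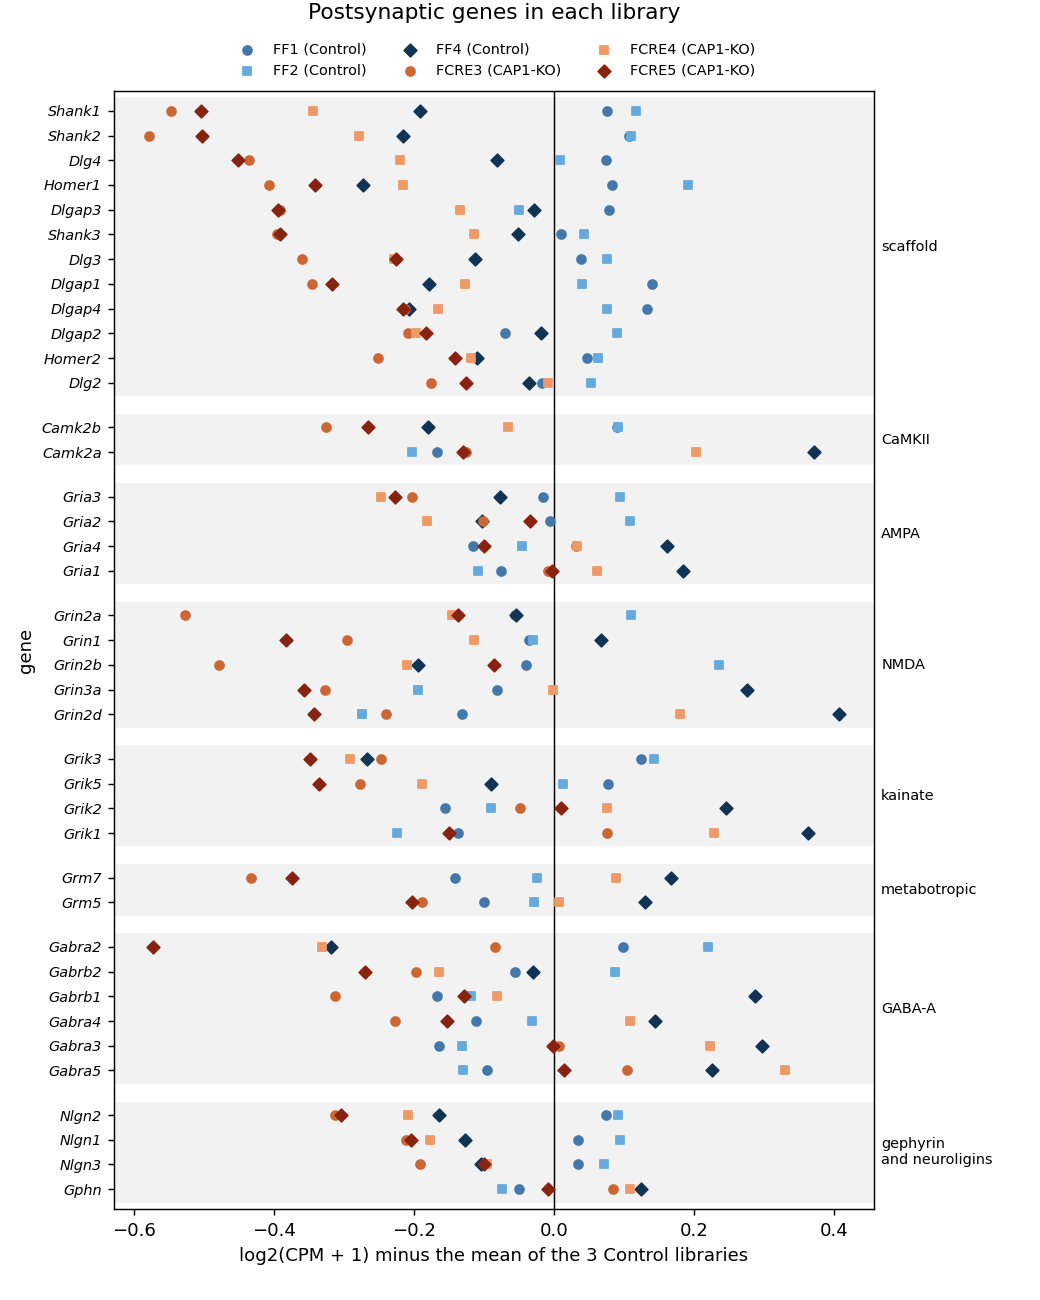
Level of each postsynaptic gene in each library as log2(CPM + 1) minus the mean of the 3 Control libraries (horizontal axis), with genes in rows grouped by role; circles, squares and diamonds are single libraries, blue for Control and orange to red for CAP1-KO. In the scaffold rows the CAP1-KO points lie to the left of FF1 and FF2 in 11 of 12 genes with FF4 between or near them, while in several receptor rows FF4 is the rightmost point.

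Camk2a and Camk2b encode subunits of CaMKII, the calcium-activated kinase of the postsynaptic density, and both overlapped between the groups. Camk2b had the highest level of all 39 genes, at 171 ± 17.9 CPM per kb of transcript in Control. It measured 729 CPM in FF1, 730 in FF2 and 605 in FF4, and 547, 655 and 570 CPM in FCRE3, FCRE4 and FCRE5, so that FCRE4 lay above FF4 (log2 fold change -0.22, SE 0.10, limma adjusted p = 0.233). Camk2a, the alpha subunit that becomes abundant after birth, measured 82.2 CPM in FF1, 80.1 in FF2 and 120 in FF4, and 84.6, 107 and 84.4 CPM in FCRE3, FCRE4 and FCRE5. FF4 was its highest library, and the mean difference from all Controls was near 0 (log2 fold change -0.02, 95% interval -0.39 to 0.36).

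Among AMPA receptor subunits, 1 of 4 was separated between the groups (14.6% of all genes), a count too small to set against that share. Gria2, the subunit that limits calcium entry through the channel, measured 1096 CPM in FF1, 1186 in FF2 and 1024 in FF4, against 1026, 970.1 and 1074 CPM in FCRE3, FCRE4 and FCRE5, with overlap and a log2 fold change of -0.11 (95% interval -0.28 to 0.07). Gria1 measured 272, 266 and 326 CPM in FF1, FF2 and FF4, and 285, 299 and 286 CPM in the CAP1-KO libraries, all 3 between FF1 and FF4 (log2 fold change 0.02, 95% interval -0.17 to 0.20). Gria3, on the X chromosome, measured 96.1, 104 and 92.0 CPM in FF1, FF2 and FF4 and 84.2, 81.7 and 82.8 CPM in FCRE3, FCRE4 and FCRE5. No CAP1-KO library reached the lowest Control (log2 fold change -0.23, SE 0.05, limma adjusted p = 0.0927). Gria4 ranged from 93.3 to 113 CPM in Control and from 94.3 to 103 in CAP1-KO.

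All 5 NMDA receptor genes had negative log2 fold changes (median -0.26, range -0.27 to -0.13), and 2 of them, Grin1 and Grin2a, were separated (14.6% of all genes). Grin1, which encodes the subunit present in every NMDA receptor, measured 130 CPM in FF1, 131 in FF2 and 139.8 in FF4, and 108, 123 and 102 CPM in FCRE3, FCRE4 and FCRE5. FF4 was the highest Control here, and the mean in CAP1-KO was 83.3% of Control (log2 fold change -0.26, SE 0.07, limma adjusted p = 0.111). An annotated antisense gene, Grin1os, overlaps 13.5% of the exon length of Grin1, and how the authors' counter used the strand is not given in the sources used here. Grin2d measured 24.9, 22.5 and 36.6 CPM in FF1, FF2 and FF4 and 23.1, 31.2 and 21.4 CPM in the CAP1-KO libraries (log2 fold change -0.13, SE 0.20); an antisense gene overlaps 9.66% of its exon length. The spread was wide in both groups, with FF4 and FCRE4 the highest of each. Grin2a, the subunit that takes over after birth, was near the lower limit of the test at 1.54 to 1.85 CPM in Control and 0.83 to 1.40 in CAP1-KO; Grin2b, the predominant embryonic subunit, ranged from 72.0 to 97.4 and from 59.0 to 77.8 CPM, and Grin3a from 31.0 to 43.3 and from 27.6 to 35.6 CPM.

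Of 4 kainate receptor genes, Grik5 was separated (14.6% of all genes). Grik5, an auxiliary high-affinity subunit, measured 285 CPM in FF1, 273 in FF2 and 254 in FF4, and 223, 237 and 214 CPM in FCRE3, FCRE4 and FCRE5, without overlap (log2 fold change -0.27, SE 0.06, limma adjusted p = 0.0886). Grik3 measured 282, 286 and 215 CPM in FF1, FF2 and FF4 against 218, 211 and 203 CPM in the CAP1-KO libraries, so FF4 lay among the CAP1-KO libraries (-0.30, SE 0.11, adjusted p = 0.16). Grik1 measured 26.2, 24.6 and 37.4 CPM in FF1, FF2 and FF4 and 30.5, 34.0 and 25.9 CPM in FCRE3, FCRE4 and FCRE5 (0.05, 95% interval -0.32 to 0.43). Grik2 stood at 100.4 to 133 CPM in Control and 108 to 118 in CAP1-KO. In Grik1 and Grik2 the Control range enclosed all 3 CAP1-KO libraries. The metabotropic receptor genes both overlapped: Grm5, coupled to Homer scaffolds, measured 208, 218 and 244 CPM in FF1, FF2 and FF4 and 195, 224 and 193 CPM in the CAP1-KO libraries (-0.13, 95% interval -0.31 to 0.06). Grm7 measured 23.8, 25.9 and 29.7 CPM in FF1, FF2 and FF4 and 19.3, 28.1 and 20.1 CPM in the CAP1-KO libraries (-0.24, 95% interval -0.58 to 0.10).

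Of 6 GABA-A receptor genes, 4 had negative log2 fold changes and 1 was separated, a share near the 14.6% of all genes. Gabrb2, a beta subunit, measured 165 CPM in FF1, 182 in FF2 and 168 in FF4, and 149.6, 153 and 142 CPM in FCRE3, FCRE4 and FCRE5 (log2 fold change -0.21, SE 0.05, limma adjusted p = 0.103). Gabra5, an alpha subunit of extrasynaptic receptors, measured 58.4, 56.9 and 73.1 CPM in FF1, FF2 and FF4 and 67.1, 78.7 and 63.0 CPM in the CAP1-KO libraries, and had the most positive log2 fold change of the 39 genes (0.15, 95% interval -0.11 to 0.41). Gabra3, on the X chromosome, measured 64.6, 66.1 and 89.3 CPM in FF1, FF2 and FF4 and 72.9, 84.8 and 72.4 CPM in FCRE3, FCRE4 and FCRE5 (0.08, 95% interval -0.22 to 0.37). In both genes the CAP1-KO libraries lay above FF1 and FF2. Gabra2 showed the opposite order for FF4, at 48.1, 52.4 and 35.8 CPM in FF1, FF2 and FF4 and 29.8 to 42.3 CPM in CAP1-KO. Gabrb1 measured 10.9, 11.3 and 15.3 CPM in FF1, FF2 and FF4 and 9.73, 11.6 and 11.2 CPM in the CAP1-KO libraries, and Gabra4 ranged from 18.1 to 21.8 CPM in Control and from 16.7 to 21.3 in CAP1-KO.

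Among gephyrin and the 3 neuroligins, Nlgn1 and Nlgn2 were separated (14.6% of all genes). Gphn, the anchor of GABA-A and glycine receptors, measured 62.1 CPM in FF1, 61.1 in FF2 and 70.2 in FF4, and 68.3, 69.4 and 64.0 CPM in FCRE3, FCRE4 and FCRE5, all within the Control range (log2 fold change 0.06, 95% interval -0.09 to 0.21). Nlgn2, the neuroligin of inhibitory synapses, measured 422, 427 and 358 CPM in FF1, FF2 and FF4, and 323, 347 and 324 CPM in the CAP1-KO libraries, without overlap (-0.28, SE 0.08, limma adjusted p = 0.111). Nlgn1, found mainly at excitatory synapses, was separated as well (69.3 to 80.9 against 65.3 to 66.9 CPM). An antisense gene, A830092H15Rik, overlaps 9.16% of the exon length of Nlgn1. Nlgn3 measured 98.4, 100.9 and 89.2 CPM in FF1, FF2 and FF4 and 83.96, 89.8 and 89.5 CPM in FCRE3, FCRE4 and FCRE5, with overlap at FF4 (-0.13, 95% interval -0.27 to 0.01). A second annotated gene on the same strand, Gm21986, covers 41.2% of the exon length of Nlgn3, so how those reads were assigned is uncertain.

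The place of FF4 among the Controls was distributed over the members much as over all genes. FF4 was below both other Controls in 20 members (51.3%, against 48.4% of all genes) and above both in 15 (38.5%, against 34.7%). The 20 included 10 of the 12 scaffolds, Camk2b, Gria2, Grin2b, Grik3, Gabra2 and the 3 neuroligins, with shifts of -0.48 to -0.05 (log2). The 15 included Camk2a, Gria1, Grin2d, Grin3a, Grik1, Grik2, Grm5, Grm7, Gabra3, Gabra5, Gabrb1 and Gphn, with shifts of 0.10 to 0.61. Without FF4, 21 members were called lower (53.8%, against 18.9% of all genes) and 2 higher, Gabra3 and Gabra5 (5.13%, against 9.36%). The Control spread in that fit comes from FF1 and FF2 alone. They were the Control pair that differed least (chi-square per gene 9.47, against 26.3 and 34.9 for the pairs with FF4). Both also had higher cortical projection neuron sums (3172 and 3262 CPM) than FF4 (2241 CPM). The 21 and 2 calls therefore cannot decide whether members differ from Control. Without FCRE4, 4 members, Dlg4, Shank3, Dlgap3 and Grin1, were called lower (1.26% of all genes) and 0 higher (0.562%). FCRE4 was the highest CAP1-KO library in 31 of 39 members (79.5%), as in 38.3% of all genes.

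Against FF4 alone, nearly every postsynaptic gene had a negative value. This comparison uses the same CAP1-KO libraries and 1 of the same Controls, and its test assumes that the lone FF4 varies like the CAP1-KO libraries. The log2 fold change was negative in 38 of 39 members (49.2% of all genes), Dlgap4 at 0.01 being the exception, with a median of -0.18 where all genes had 0.00. In 28 members (71.8%) all 3 CAP1-KO libraries lay below FF4, as in 27.9% of all genes, and in 0 members did all 3 lie above it, as in 28.0% of all genes. Again 0 members passed the threshold (limma, 0.0864% of all genes called lower and 0.31% higher), and 14 were lower at an unadjusted p under 0.05 (35.9%, against 5.04% of all genes) and 0 higher (3.28%). The lowest values belonged to receptors and to Camk2a: Grin2d (log2 fold change -0.54, SE 0.19), Grin3a (-0.50, SE 0.14), Gabrb1 (-0.46, SE 0.13), Grm7 (-0.41, SE 0.20) and Camk2a (-0.39, SE 0.13). The scaffold median was -0.17, with Dlg4 at -0.29, Dlgap3 at -0.28 and Shank1 at -0.27. With FCRE4 left out as well, 17 members were called lower than FF4 (43.6%, against 5.04% of all genes) and 0 higher (2.34%). FCRE4 was the highest CAP1-KO library in 31 of 39 members, so leaving it out lowers the CAP1-KO mean in most of them. The spread in that fit comes from FCRE3 and FCRE5 alone, the replicate pair that differed least (chi-square per gene 6.02). Those calls therefore cannot decide whether members differ from FF4. The members' median against FF4 was -0.20 without FCRE4, -0.17 without FCRE3 and -0.16 without FCRE5. The tested genes at least 5.57 kb long had a median of 0.00 against FF4. Marker medians against FF4 were -0.12 for pan-neuronal, -0.20 for striatal neuron and -0.08 for interneuron genes. They were -0.27 for oligodendrocyte precursor and 0.08 for cortical projection neuron genes. A negative median against FF4 was therefore not particular to the postsynaptic genes.

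**Figure D3:**
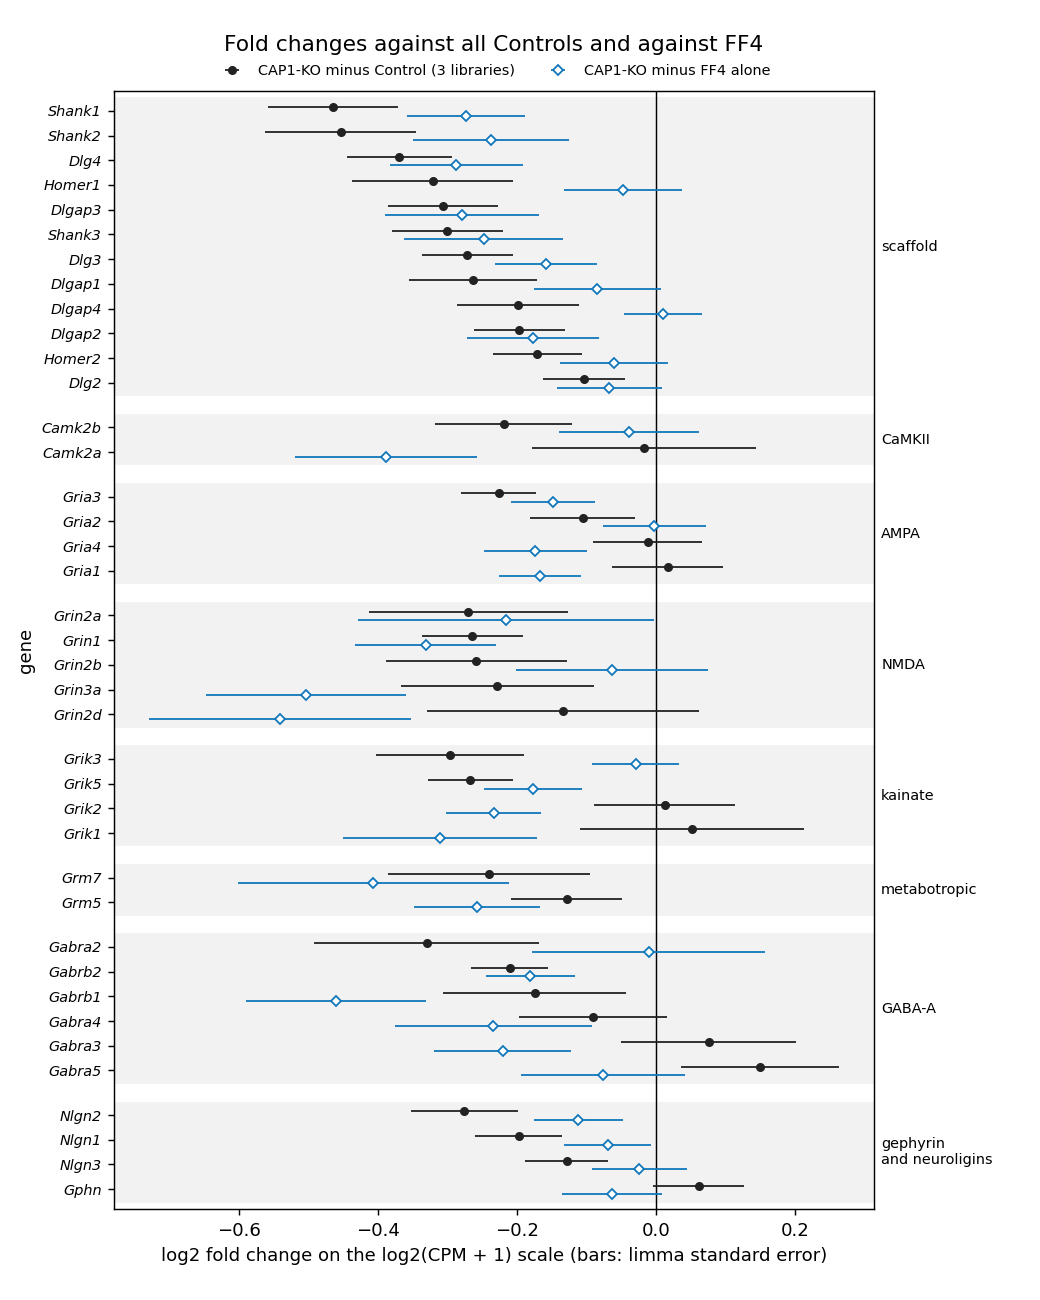
Log2 fold change of each postsynaptic gene (horizontal axis, log2(CPM + 1) scale) against the 3 Control libraries (filled circles) and against FF4 alone (open diamonds), with limma standard errors as bars and genes in rows grouped by role. Scaffold genes lie further left against all Controls, and Camk2a, Grin2d, Grin3a, Grik1, Grik2 and Gabrb1 lie further left against FF4.

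The makeup of each receptor and scaffold family was taken within each library from CPM per kb of transcript, and the largest difference between group means was 3.76 percentage points, for Dlg2. Such a share does not depend on scaling between libraries, but its level depends on the annotated transcript. Of 31 shares in 11 families, 8 did not overlap between the groups. Among all genes tested, 14.6% were separated with CAP1-KO lower and 11.1% with CAP1-KO higher. The count of separated shares is thus near that of single genes in both directions together. Shares within a family are tied to each other, so these are not independent. An exact two-sided permutation test of 3 against 3 libraries cannot go below p = 0.1. That value is also the share of library splits that separate the groups in either direction. With 31 shares the smallest Benjamini-Hochberg adjusted p of this test was 0.3875. Gria2 made up 54.3 ± 3.51% of AMPA transcripts in Control and 53.2 ± 1.81% in CAP1-KO (SD, n = 3 each, exact permutation p = 0.7). Gria1 followed with 26.6 ± 3.09% and 28.3 ± 1.20%, so the order of the AMPA subunits was the same in every library except that Gria3 and Gria4 changed places. Among Dlg genes, Dlg2 held 35.3%, 36.9% and 37.4% in FF1, FF2 and FF4 and 40.4%, 40.04% and 40.5% in FCRE3, FCRE4 and FCRE5, while Dlg4 held 41.6%, 39.6% and 40.2% against 37.3%, 38.3% and 35.8% (exact permutation p = 0.1 each). Dlg4 was thus the leading Dlg gene in all 3 Control libraries and Dlg2 in all 3 CAP1-KO libraries. That order rests on the transcript chosen: from merged exon length Dlg2 held 31.1%, Dlg3 34.6% and Dlg4 34.3% in Control. Gabra5 held 41.8 ± 1.56% of the 4 alpha subunit genes in Control and 45.2 ± 0.84% in CAP1-KO (exact permutation p = 0.1). Grin2a stayed at 0.84% to 1.52% of the GluN2 genes in every library. The annotated Grin2b transcript of 24.1 kb lowers its level per kb, so its share of 40.2 ± 9.22% in Control is a value of that annotation.

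**Figure D4:**
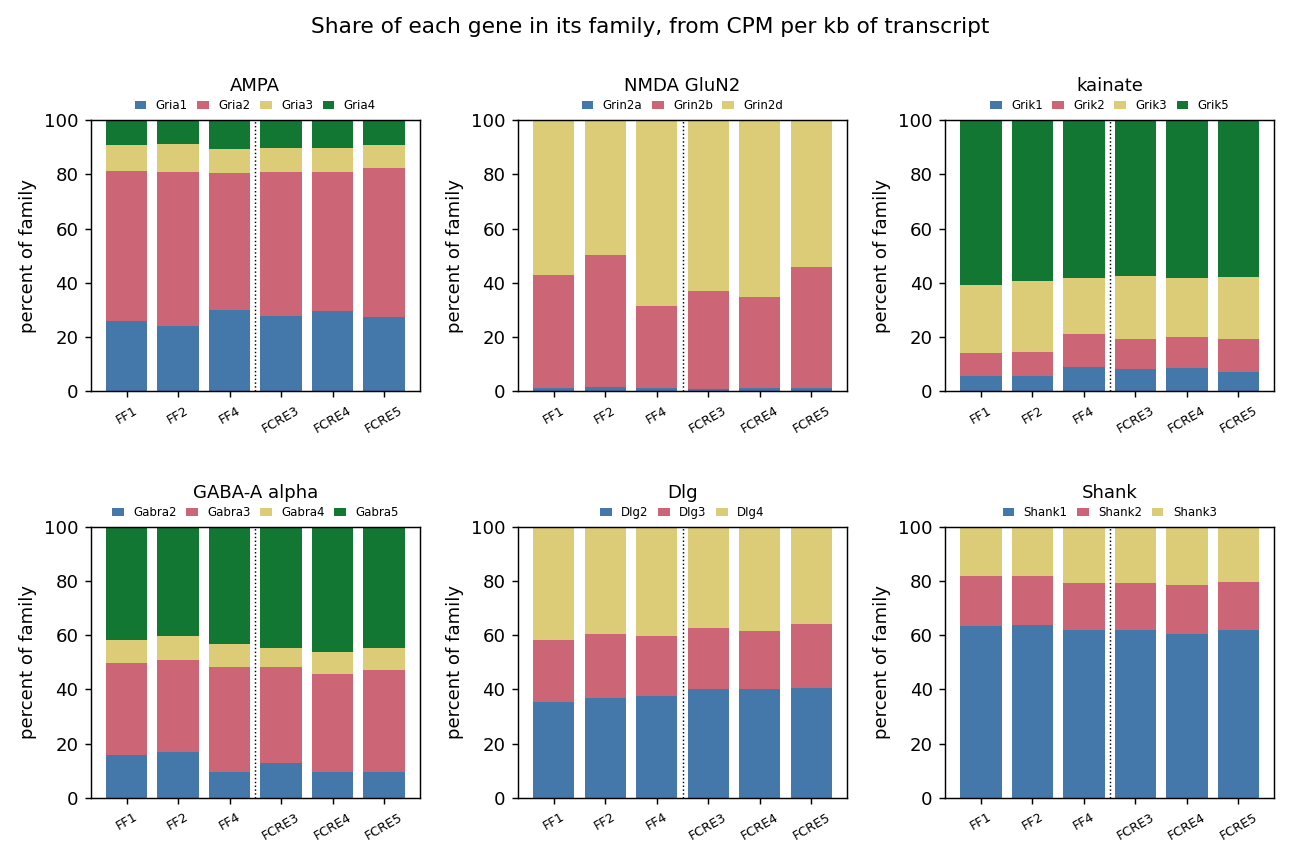
Share of each gene in its family (percent, stacked bars), from CPM per kb of transcript, in the 3 Control libraries (left of the dotted line) and the 3 CAP1-KO libraries for 6 families. Dlg2 takes 35.3% to 37.4% in Control and 40.04% to 40.5% in CAP1-KO, and Grin2b takes 30.4% in FF4, its lowest share.

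Sex was a second difference between the libraries, and 4 members lie on the X chromosome. Their log2 fold changes were -0.27 for Dlg3, -0.23 for Gria3, -0.13 for Nlgn3 and 0.08 for Gabra3, and 30 of the 35 autosomal members were also negative. Against FF2, the 1 Control library with high Xist, these values were -0.35, -0.32, -0.20 and 0.21. In that comparison, with FF2 assumed to vary like the CAP1-KO libraries, 12 members were called lower (30.8%, against 8.53% of all genes) and 0 higher (4.51%). With the Xist level as a covariate 0 members were called, and the smallest limma adjusted p was 0.23, for Gria3. FF2 and the CAP1-KO libraries all had high Xist, while their cortical projection neuron sums differed (3262 against 2193 to 2421 CPM).

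Promoter sequence is shown for the separated members with a single RefSeq window and at least 2 GC boxes. The choice was made after their values were seen. RefSeq windows from 250 bases before to 50 after the start (GRCm38.p6) were matched for 27 of 39 members. The CArG box bound by SRF, whose targets the series title names, was in 0 of 27 members and in 1.81% of the 27025 genes with a window. The cyclic AMP element TGACGTCA was in 0 of 27 (2.03% of genes) and the NRF1 element in 1, Gabrb1 (1.07% of genes). The GC box GGGCGG, searched on both strands like the others, was in 15 of 27 members, and in 38.2% of all genes. A gene counted if any of its windows matched, and several members have more than 1 window, so these shares are not matched for window number. Of all 32851 windows, 35.7% held the GC box. Capitals mark the GC box on either strand in these windows of Grik5 (chr7:25072320-25072619, minus strand), Nlgn2 (chr11:69837735-69838034, minus strand) and Shank3 (chr15:89499358-89499657, plus strand), each 5′ to 3′ along the gene.
Grik5: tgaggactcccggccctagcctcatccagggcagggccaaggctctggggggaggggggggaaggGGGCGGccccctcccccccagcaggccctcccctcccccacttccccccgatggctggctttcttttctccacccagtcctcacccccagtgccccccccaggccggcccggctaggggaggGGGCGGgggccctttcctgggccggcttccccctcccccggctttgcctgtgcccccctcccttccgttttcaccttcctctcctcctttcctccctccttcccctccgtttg
Nlgn2: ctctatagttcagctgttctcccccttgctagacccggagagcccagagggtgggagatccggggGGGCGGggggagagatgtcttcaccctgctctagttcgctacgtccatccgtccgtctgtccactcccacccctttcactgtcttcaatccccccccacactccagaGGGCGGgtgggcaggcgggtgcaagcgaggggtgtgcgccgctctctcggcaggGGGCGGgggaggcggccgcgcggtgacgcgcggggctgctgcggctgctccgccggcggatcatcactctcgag
Shank3: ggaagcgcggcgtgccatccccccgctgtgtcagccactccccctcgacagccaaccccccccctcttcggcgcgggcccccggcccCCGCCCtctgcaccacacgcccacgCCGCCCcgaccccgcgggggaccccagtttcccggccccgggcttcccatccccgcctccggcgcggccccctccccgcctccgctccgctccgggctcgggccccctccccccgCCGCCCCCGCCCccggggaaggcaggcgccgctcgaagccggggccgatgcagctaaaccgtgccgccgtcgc
Grik5 has 2 such boxes, Nlgn2 has 3 and Shank3 has 4, 2 of them side by side. The windows of Grik5 and Shank3 lie inside the annotated genes (25009849 to 25075694 and 89493013 to 89560261), which begin further upstream. GC boxes were also found in members that overlapped (7 in Grik3, 3 each in Dlgap4 and Camk2b, 2 each in Gabra2 and Gabra4). The windows of the separated Dlgap3 and Nlgn1 had 0. Any part of these boxes in the levels was not tested. A match describes letters in a window and is no measure of binding.

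A second list of 86 postsynaptic genes gave values of the same direction. Of these, 84 were tested, 1 fell and 0 rose (limma, 0.403% and 0.562% of all genes); Grin3b and Gabra6 were below the level tested. Their median log2 fold change was -0.15 against Control and -0.12 against FF4 alone, and 30 of 84 were separated with CAP1-KO lower (14.6% of all genes) and 2, Akap5 and Igsf9b, with CAP1-KO higher (11.1%). The gene that fell was Shisa7, an auxiliary subunit of GABA-A receptors, at 300.2, 293 and 280.3 CPM in FF1, FF2 and FF4 and 220.1, 245 and 226 CPM in FCRE3, FCRE4 and FCRE5 (log2 fold change -0.34, SE 0.06, limma adjusted p = 0.0431). The lowest log2 fold changes were those of Grm2, a presynaptic and postsynaptic metabotropic receptor (43.1 ± 9.45 against 26.9 ± 5.79 CPM, -0.66), and Nrgn, a calmodulin-binding protein of spines (83.5 ± 6.25 against 55.5 ± 14.95 CPM, -0.61). The highest were those of Akap5, a kinase anchor (35.4 ± 9.86 against 58.1 ± 4.83 CPM, 0.73, adjusted p = 0.0884), and Camk2d, another CaMKII subunit (43.5 ± 19.7 against 60.6 ± 6.35 CPM, 0.55; n = 3 each). Of these 4 genes Akap5 lay higher and Nrgn lower in every CAP1-KO library than in every Control library.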

How the data were processed

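RNA of cerebral cortex was sequenced in 6 libraries. The labels' protocols describe poly(A) selection and a directional library kit; the submitters' processing notes name STAR, edgeR, GRCm38 and mm10. For the read counter, its strand setting and the annotation, nothing is stated in those notes. The authors' normalized read values were deposited on a log2 scale, beside their log2 fold change, F score, p-value and FDR, per the file headers. Columns were assigned to groups by the genotype in their names, whose numbers match no replicate number of the labels.

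A shared offset (0.0584 CPM) was removed, after which 100% of values under 2000 reads lay within 0.01 of a whole read. The main test (limma 3.58.1, R 4.3.3) allowed the variance to follow mean level and used Benjamini-Hochberg adjustment on log2(CPM + 1), which understates changes of low genes. It covered the 13885 genes averaging 1 CPM or more. Levels per kb use the longest protein-coding transcript of the GENCODE basic set. Replicate libraries differed by more than sampling noise (chi-square per gene 6.02 to 34.9). On simulated reads for CAP1-KO against Control (13885 genes), 53% of 100 genes changed 1.5-fold and 85% of 100 changed 2-fold were recovered, and 7 unchanged genes were called. Both simulated sizes exceed the change of every member, so recovery at the members' sizes is not known.

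Members, lists and alternatives were chosen with earlier results of these data known. Values in every library are given for X-linked members and, in each role group, for the 2 of highest CPM per kb and the 1 of largest log2 fold change in either comparison. Of the second list, the 2 largest increases and decreases and any gene passing the test are named. Igsf9b, Gabra2, Shank2, Shank3 and further members named by range were chosen after their values were seen. Alternatives were other scalings, the deposited log2 values, limma-voom on recovered reads, other filters, a pseudocount of 0.1, Xist as a covariate, FF2 as the sole Control, and leaving out each library.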

Additional observations from a re-analysis of the deposited data

How the results depend on the processing

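The median log2 fold change of the 39 genes stayed negative in all 15 alternatives against Control, and moved furthest with scaling to total reads (-0.14, where the median of all genes was 0.06). Against FF4 alone it ran from -0.20 to -0.16 over 10 alternatives. Members called lower numbered 0 to 21 when 1 library was left out (21 without FF4, 4 without FCRE4, 0 without each other library) and 12 with FF2 as the sole Control; members called higher numbered 0 to 2 (2 without FF4). The other 8 alternatives that kept all libraries called 0 members, with a smallest adjusted p of 0.0514 (Shank1, total reads). The cause of these differences was not tested. The sign of the log2 fold change turned in at least 1 alternative for Camk2a, Gria1, Gria4, Grin2d, Grik1, Grik2 and Gabra3, and in none for the 12 scaffolds. No paired analysis was possible because the library columns do not carry the replicate numbers of the labels. Depth was similar in all libraries; Grin2a, at 0.83 to 1.85 CPM, has the fewest reads of the members, and Grin2d has the largest SE (0.20).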
